A study of Mus musculus with 21 samples.

Results

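The genes Esrrb, Tfcp2l1, Nr5a2, Tbx3, Nr0b1, Zfp42 and Tcl1, all regulators or markers of naive pluripotency, were followed across 21 Illumina one-colour bead arrays of mouse cells. These 7 genes are among 19057 named by a probe on the array, and they were chosen with earlier results of these data known. Counts among them are therefore descriptions. Their probes were found by name, with no threshold on values: every probe annotated with one of these symbols was taken, which gave 14 of 45281 probes. Of the 14, 13 had a detection p under 0.05 on at least 3 arrays and were tested. The other, an Nr5a2 probe (ILMN_2751680), was detected on 1 array and is not considered further.

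Each of 7 groups held 3 arrays. Epiblast-like cells (EpiLC), a culture model of the post-implantation epiblast, came from naive embryonic stem cells kept for 2 days in N2B27 with FGF2, Activin A and 1% KSR, a serum replacement. The later samples were SSEA1+ CD61+ cells sorted at day 6 from aggregates in GK15, a medium with 15% KSR. Where SCF, EGF, LIF, BMP8a and BMP4 had been added, these cells are called primordial germ cell-like cells (PGCLC). EpiLC and PGCLC were made from wildtype E14Tg2a cells (WT), from the line labelled Otx2-/- (alleles Otx2GFP/lacZ, here Otx2-null) and from the line labelled Otx2-/-; Blimp1-/- (the same Otx2 alleles, here Otx2/Blimp1-null). The last group held sorted day-6 Otx2-null cells from GK15 alone, without cytokines, and has no WT counterpart. The design sets sorted cells of both mutant lines beside WT germ cell-like cells, and each beside its own EpiLC. Each genotype was represented by 1 line, so effects of genotype and of line cannot be told apart.

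Naive pluripotency is the state of the pre-implantation epiblast and of mouse embryonic stem cells kept with LIF or with inhibitors of differentiation. It is held by a network of transcription factors that activate each other, and LIF acts on it through Stat3. The network is taken down as cells pass into the post-implantation epiblast, a step that Otx2 promotes, and parts of it are expressed again in primordial germ cells. Blimp1, encoded by Prdm1, is a repressor that sets aside the germ cell lineage. Within the network, Esrrb and Nr5a2 are orphan nuclear receptors that bind DNA as monomers, and both can sustain expression of Pou5f1 or Nanog. Tfcp2l1 is a CP2-family factor induced by LIF and Stat3, and Tbx3 is a T-box factor. Nr0b1 is a nuclear receptor without the usual DNA-binding domain that acts on other receptors, Zfp42 (also known as Rex1) is a zinc finger protein used as a reporter of the naive state, and Tcl1 is an activator of the kinase Akt.

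Promoter sequence is shown for the 3 members whose window held one of the letter patterns searched. RefSeq windows on GRCm38.p6, from 250 bases before the gene start to 50 after it, were found for 6 of the 7 members (8 windows), not for Tbx3. Both strands were searched for TCAAGGTCA, a site of Esrrb and Nr5a2, and for its core, AAGGTCA. Further patterns were the Otx2 site TAATCC, the Stat3 site TTCCNNGAA, the T-box site AGGTGT and ATTTGCAT, the octamer of Pou5f1. The octamer was added after the sequences had been seen. Capitals mark the match in each line, and each sequence runs 5′ to 3′ on the strand of its gene.
Esrrb, chr12:86360867-86361166, plus strand: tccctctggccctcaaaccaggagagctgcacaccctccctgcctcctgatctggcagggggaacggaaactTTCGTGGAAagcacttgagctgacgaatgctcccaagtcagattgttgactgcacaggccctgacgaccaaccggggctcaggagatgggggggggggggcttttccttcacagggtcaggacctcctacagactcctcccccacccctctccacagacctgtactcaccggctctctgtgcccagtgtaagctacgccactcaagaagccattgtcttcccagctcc
Zfp42, chr8:43306960-43307259, minus strand: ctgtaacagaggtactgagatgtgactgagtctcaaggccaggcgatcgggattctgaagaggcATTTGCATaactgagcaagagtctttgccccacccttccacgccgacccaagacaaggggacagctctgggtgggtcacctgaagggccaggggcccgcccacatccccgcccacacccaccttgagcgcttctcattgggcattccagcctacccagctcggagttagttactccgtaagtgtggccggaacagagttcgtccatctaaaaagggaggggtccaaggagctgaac
Tcl1, chr12:105222688-105222987, minus strand: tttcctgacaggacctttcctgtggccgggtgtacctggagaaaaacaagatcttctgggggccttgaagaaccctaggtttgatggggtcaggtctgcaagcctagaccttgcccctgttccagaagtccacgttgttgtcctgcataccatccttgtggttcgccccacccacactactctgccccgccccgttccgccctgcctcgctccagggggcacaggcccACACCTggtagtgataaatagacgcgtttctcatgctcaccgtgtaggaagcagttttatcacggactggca
The Esrrb window held the Stat3 pattern on the other strand, 178 bases before the gene start, as did 4.81% of the 32851 promoter windows of this length. In the Zfp42 window the octamer began 186 bases before the start, and 1.74% of all windows held it. The Tcl1 window held the T-box pattern on the other strand, beginning 22 bases before the start, as did 13.7% of all windows. The Esrrb and Nr5a2 site (0.423% of all windows), its core (4.72%) and the Otx2 pattern (7.06%) were in none of the 8 windows. A match is a description of the letters and not of binding.

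Levels are given as log2 signals after background correction and quantile normalization. The lowest signal of a detected probe lay between 4.83 and 5.31 on the 21 arrays, and the highest signal was 14.92 on each. Detected probes numbered 14088 to 15861 on EpiLC arrays and 15961 to 19556 on day-6 arrays, and arrays of a group correlated at 0.981 to 0.993. The number of arrays limits the precision. Whether replicates came from separate cultures is not stated in the labels, so p-values reflect only how these samples vary, which may be technical. The probe of the targeted gene Otx2 was not dimmer in the lines labelled as lacking it (10.98 in WT EpiLC, 11.36 in Otx2-null EpiLC, 7.63 in WT PGCLC and 9.62 in Otx2-null PGCLC). Whether this probe lies inside the deleted sequence is not known here, so it checks nothing. Neither Prdm1 probe passed the detection filter, so neither was tested. Both were undetected on all WT PGCLC and Otx2-null PGCLC arrays, so the loss of Blimp1 could not be checked against these groups. Only ILMN_2597923 was detected anywhere, on 2 arrays of Otx2-null cells without cytokines, a treatment the Otx2/Blimp1-null line lacks. Transcripts of Itgb3, which encodes CD61, and of Fut4, whose enzyme makes SSEA1, lay near the floor in every group, so the sort could not be checked from them. The 4 EpiLC markers tested, with Otx2 among them by the same probe, fell from EpiLC to day 6 in all lines. The early germ cell markers Tfap2c, Kit, Dppa3, Nanos3, Prdm14, Rhox9 and Dnd1 all rose in WT cells, where 30.2% of all probes rose. For replicate 2 of the Otx2-null PGCLC, the deposited intensities did not follow the order of the probes and were put back in order (below, the reordered array). Called differences of lead probes that use it are also given without it, or said to be still called. Other results that use it, those of the gene lists among them, include it unless stated. Differences are log2 values ± standard error, with the sign of the first group minus the second, and a change is called where the limma p adjusted over all 21647 tested probes is under 0.05. Where a fold is given as "at least", the adjusted p beside it tests the measured difference, which includes undetected readings, and not the bound. A gene with several probes is described by its brightest, the lead probe.

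From WT EpiLC to WT PGCLC, the lead probes of all 7 regulators rose. Among all probes tested 30.2% rose and 57.7% were called in either direction. Esrrb and Tfcp2l1 rose by over 6 log2 units, Tcl1 by over 5 and Zfp42 by 2.97. Nr5a2, Tbx3 and Nr0b1 were undetected in WT EpiLC, so their rises are given as lower bounds, and Nr0b1 stayed close to the floor at day 6. In bulk samples, more expressing cells and more RNA per cell cannot be told apart.

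**Figure D1:**
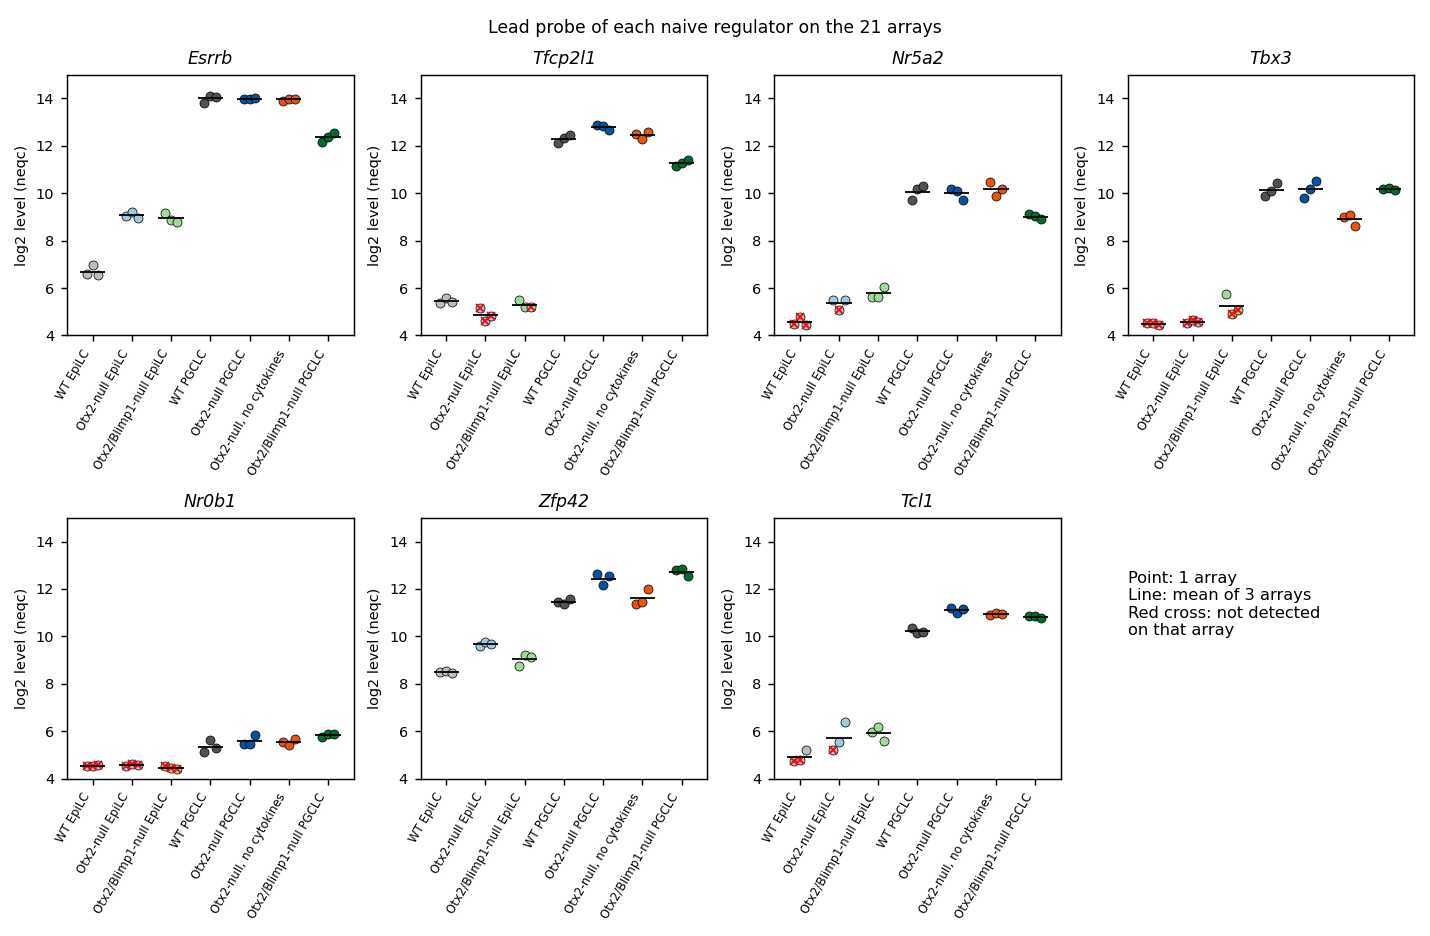
Log2 signal of the lead probe of each regulator (vertical axis) on the 3 arrays of each of the 7 groups (horizontal axis). Points are arrays, lines are group means and red crosses mark arrays on which the probe was not detected. All 7 regulators lie higher at day 6 than in the EpiLC of the same line, and Esrrb, Tfcp2l1 and Nr5a2 lie lower in Otx2/Blimp1-null PGCLC than in the other day-6 groups.

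Of the nuclear receptors, Esrrb (ILMN_1228497) read 6.58, 6.95 and 6.53 in WT EpiLC and 13.80, 14.10 and 14.07 in WT PGCLC. The difference was 7.30 ± 0.15 (adjusted p = 4.61e-20), and the day-6 values lay near the brightest signal of the arrays. It was 9.66 in the authors' normalized table, so its size depends on the scale. Nr5a2 (ILMN_2634389) read 4.48, 4.77 and 4.44 in WT EpiLC, where it was detected on no array, and 9.69, 10.17 and 10.32 in WT PGCLC. It was therefore at least 30.1-fold higher in WT PGCLC (adjusted p = 6.61e-16). The receptor-like Nr0b1 (ILMN_2615796) was also detected on no WT EpiLC array, where it read 4.52, 4.55 and 4.60, against 5.13, 5.62 and 5.29 in WT PGCLC. This was a rise of at least 1.15-fold. The adjusted p of 4.0e-05 is that of the measured difference of 0.79 ± 0.14, which rests on undetected EpiLC readings, and not of this bound.

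The CP2-family factor Tfcp2l1 (ILMN_2769832) read 5.37, 5.59 and 5.40 in WT EpiLC, just above the floor, and 12.12, 12.31 and 12.47 in WT PGCLC. Its rise of 6.85 ± 0.15 (adjusted p = 1.40e-19) was within 0.5 log2 units of that of Esrrb. The T-box factor Tbx3 (ILMN_1247220) went from 4.53, 4.53 and 4.45, all undetected, to 9.87, 10.09 and 10.44, at least 31.7-fold higher (adjusted p = 1.01e-15).

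The reporter gene Zfp42 (ILMN_2961604) was already well above the floor in WT EpiLC, where it read 8.50, 8.55 and 8.46. It rose to 11.46, 11.38 and 11.58 in WT PGCLC, by 2.97 ± 0.17 (adjusted p = 1.68e-12), with no overlap between the groups. The Akt activator Tcl1 (ILMN_2985612) read 4.74, 4.79 and 5.22 in WT EpiLC, detected on 1 array, and 10.37, 10.13 and 10.20 in WT PGCLC, a rise of 5.31 ± 0.21 (adjusted p = 5.92e-15).

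All 7 lead probes also rose from EpiLC to day 6 in the Otx2-null line with cytokines, in the Otx2-null line without cytokines and in the Otx2/Blimp1-null line. Among all probes, 32.3%, 32.9% and 18.5% rose in these comparisons, in that order, and 61.6%, 62.0% and 39.2% were called in either direction. The Otx2-null line gave the largest rise of Tfcp2l1, at least 181-fold with cytokines and at least 142-fold without, from EpiLC in which it was detected on no array. Esrrb rose by 4.91 ± 0.15 in Otx2-null PGCLC, by 4.88 ± 0.15 in the absence of cytokines and by 3.41 ± 0.15 in the Otx2/Blimp1-null line. Nr5a2 rose by 4.64 ± 0.19, 4.80 ± 0.19 and 3.24 ± 0.19 in the same order, and Tbx3 by at least 29.3-fold, by at least 12.1-fold and by 4.93 ± 0.20. For Zfp42 the rise was 2.76 ± 0.17 with cytokines and 1.93 ± 0.17 without them in the Otx2-null line, and 3.69 ± 0.17 in the Otx2/Blimp1-null line. Tcl1 rose by 5.38, 5.24 and 4.92 (each ± 0.21), and Nr0b1 by at least 1.23-fold, 1.20-fold and 1.58-fold. Both Otx2-null comparisons share the same EpiLC arrays, so their values stand side by side and a likeness between them is not a result. Without Otx2-null PGCLC replicate 2 the rises in Otx2-null PGCLC were 4.92 for Esrrb, 4.59 for Nr5a2, 2.91 for Zfp42 and 5.44 for Tcl1, and the lead probes of all 7 genes were still called. In the authors' deposited normalized table, which compresses dim signals, the Nr0b1 differences were only 0.02 to 0.04 and were still called.

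**Figure D2:**
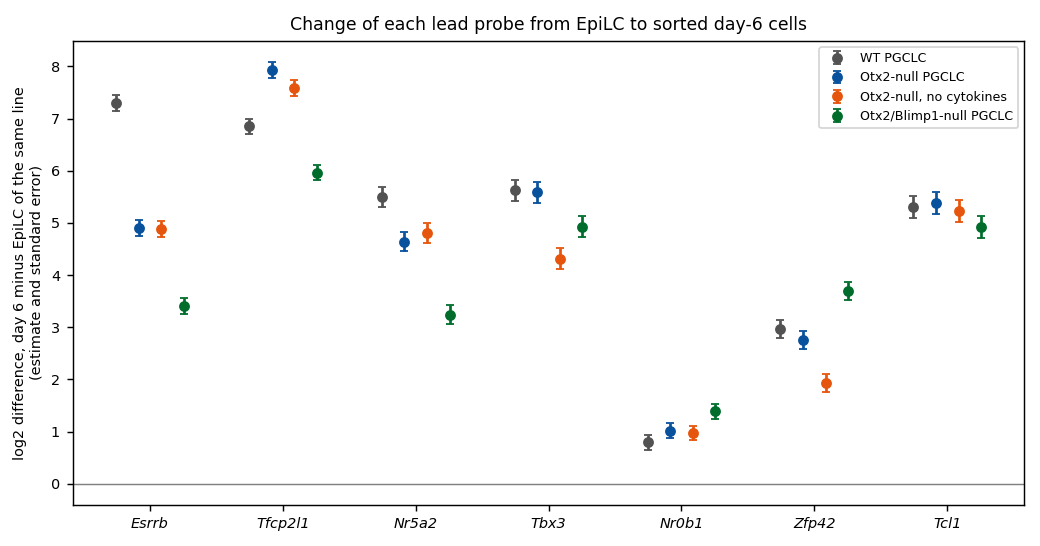
Log2 difference from EpiLC to sorted day-6 cells of the same line (vertical axis) for the lead probe of each regulator (horizontal axis), with points for the estimate and bars for its standard error. All points lie above 0. Esrrb was highest in WT (7.30) and lowest in the Otx2/Blimp1-null line (3.41), and Zfp42 was lowest without cytokines (1.93). Where a probe was undetected in EpiLC (Nr5a2 in WT, Tfcp2l1 in Otx2-null, Tbx3 in both and Nr0b1 in all 3 lines), the point depends on the floor and only the bound in the text holds.

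In EpiLC, before aggregation, 4 of the 7 regulators were higher in Otx2-null than in WT cells and 1 was lower, where 7.27% of all probes were higher and 8.15% lower (15.4% called). Esrrb read 9.04, 9.23 and 8.94 in Otx2-null EpiLC, all above the 6.53 to 6.95 of WT EpiLC, a difference of 2.38 ± 0.15 (adjusted p = 2.90e-10). Zfp42 read 9.61, 9.78 and 9.66, also above every WT array, and was higher by 1.18 ± 0.17 (adjusted p = 3.40e-05). Both kept their calls in the authors' normalized table, where the Esrrb difference was 4.42.

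The other calls in Otx2-null EpiLC lay at the floor. Nr5a2 read 5.48, 5.09 and 5.50, at least 1.16-fold above WT (adjusted p = 0.00512). Tcl1 read 5.22, 5.56 and 6.40, higher by 0.80 ± 0.21 (adjusted p = 0.0114), with 1 Otx2-null value just under the highest WT value. The 1 lower gene was Tfcp2l1, which read 5.14, 4.59 and 4.82, was detected on none of these arrays and was at least 1.12-fold lower (adjusted p = 0.00824). None of these 3 differences was called in the authors' normalized table, where they were 0.02, 0.04 and -0.02. The Nr5a2 call was also lost with an offset of 50, and those of Tcl1 and Tfcp2l1 when only the groups compared were fitted. The Tfcp2l1 call was further lost without Otx2-null EpiLC replicate 2, and the Tcl1 call without WT EpiLC replicate 1 or Otx2-null EpiLC replicate 3. The lead probe of Tbx3 read 4.51, 4.64 and 4.57 and Nr0b1 4.55, 4.61 and 4.56, undetected as in WT. Another Tbx3 probe, ILMN_3061990, was detected on 2 WT EpiLC arrays and was not called. The second Nr5a2 probe, ILMN_2813203, was undetected in both groups and not called (0.10 ± 0.21, adjusted p = 0.84).

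In Otx2/Blimp1-null EpiLC, Esrrb read 9.18, 8.85 and 8.79, which overlapped with the Otx2-null arrays (difference -0.13 ± 0.15, adjusted p = 0.66). Against WT EpiLC it was higher by 2.25 ± 0.15 (adjusted p = 7.57e-10). Against WT, 5 regulators were higher and none lower, where 7.48% of all probes were higher and 14.8% were called. Nr5a2 read 5.64, 5.63 and 6.03 and was at least 1.54-fold higher (adjusted p = 0.000101). Tcl1 read 5.96, 6.19 and 5.61 and was higher by 1.00 ± 0.21 (adjusted p = 0.00219). Those groups did not overlap. The second Nr5a2 probe, ILMN_2813203, was undetected in both groups and not called (0.04 ± 0.21, adjusted p = 0.93). Zfp42 read 8.74, 9.23 and 9.12, higher by 0.53 ± 0.17 (adjusted p = 0.0378), a call lost without any 1 of 5 arrays, the 3 of WT EpiLC and Otx2/Blimp1-null EpiLC replicates 2 and 3, and when only the groups compared were fitted. Tbx3 was detected only on the array that read 5.76, with 4.92 and 5.06 on the others, and was at least 1.07-fold higher (adjusted p = 0.0135), a call lost without that array. Tfcp2l1 read 5.48, 5.20 and 5.21, overlapping with WT, and Nr0b1 was undetected at 4.52, 4.46 and 4.40. In the authors' normalized table Esrrb (4.25) and Zfp42 kept their calls and Nr5a2, Tcl1 and Tbx3 did not (0.04, 0.04 and 0.02).

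Between Otx2/Blimp1-null and Otx2-null EpiLC, the lead probe of Tbx3 was called as higher (adjusted p = 0.0306) and Zfp42 as lower (-0.65 ± 0.17, adjusted p = 0.0157), where 7.32% of all probes were higher and 5.94% lower (13.3% called). No fold is given for Tbx3, which was detected on no Otx2-null and on 1 Otx2/Blimp1-null EpiLC array. Both calls were lost without Otx2/Blimp1-null EpiLC replicate 1, and that of Tbx3 also without Otx2-null EpiLC replicate 1 or 3.

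Among the sorted day-6 cells grown with cytokines, Otx2-null PGCLC had higher Zfp42 and Tcl1 than WT PGCLC and, by a smaller margin, higher Tfcp2l1, while Esrrb, Nr5a2, Tbx3 and Nr0b1 were not called. Of all probes 8.84% were higher and 18.3% were called. Zfp42 read 12.63, 12.15 and 12.54, above all WT PGCLC values, with a difference of 0.97 ± 0.17 (adjusted p = 0.000260). Tcl1 read 11.18, 10.98 and 11.15, also without overlap, with a difference of 0.87 ± 0.21 (adjusted p = 0.00517). Tfcp2l1 read 12.86, 12.83 and 12.68, higher by 0.49 ± 0.15 (adjusted p = 0.0270). Without the reordered array the differences were 1.12 for Zfp42 (adjusted p = 0.000188), 0.93 for Tcl1 (adjusted p = 0.0112) and 0.47 for Tfcp2l1, which then missed the threshold (adjusted p = 0.0776). Tfcp2l1 also missed it without Otx2-null PGCLC replicate 1, WT PGCLC replicate 1 or WT PGCLC replicate 2, and with no further background correction.

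The 4 regulators that were not called overlapped between the lines. Esrrb read 13.95, 13.95 and 14.02 in Otx2-null PGCLC, a difference of -0.01 ± 0.15 (adjusted p = 0.98). Nr5a2 read 10.17, 10.11 and 9.72 (-0.06 ± 0.19, adjusted p = 0.90). All Esrrb arrays of both groups thus lay between 13.80 and 14.10. Tbx3 read 9.80, 10.18 and 10.50 (0.03 ± 0.20, adjusted p = 0.96) and Nr0b1 5.48, 5.44 and 5.85 (0.24 ± 0.14, adjusted p = 0.29).

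Markers of other cell types also differed between these groups. Of 7 trophoblast and amnion markers, 6 were detected in WT PGCLC and 3 in Otx2-null PGCLC, where Cdx2, Gata3, Elf5 and Krt18 were not. Their summed intensity was 1685 to 2726 on WT PGCLC arrays, 80.4 to 137 on Otx2-null, 147 to 286 without cytokines and 80.6 to 89.1 on Otx2/Blimp1-null arrays. Endoderm markers summed to 104 to 239 in WT PGCLC and to at most 57.6 in the other day-6 groups, with Foxa2, Afp and Ttr undetected in all 4. Mesoderm markers summed to 122.9 to 145.9 in WT PGCLC and 23.7 to 76.9 in the other day-6 groups, with Hand1, Mesp1 and Mixl1 undetected in all 4. Neural markers summed to 100.2 to 114.9 and 11.3 to 56.0, with Pax6, Sox1 and Neurod1 undetected in all 4. The part of these markers in the differences from WT PGCLC was not tested.

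Comparing Otx2-null cells with and without cytokines, Tbx3 and Zfp42 were higher with cytokines and the other 5 regulators were not called, where 6.57% of all probes were higher and 12.4% were called. Without cytokines Tbx3 read 9.00, 9.06 and 8.61, below every Otx2-null PGCLC and WT PGCLC array. The difference with cytokines was 1.27 ± 0.20 (adjusted p = 9.51e-05), and the 3 other Tbx3 probes were higher with cytokines by 0.98, 1.33 and 1.92. Zfp42 read 11.38, 11.46 and 11.99 without cytokines and was 0.83 ± 0.17 higher with them (adjusted p = 0.00156). Without the reordered array the differences were 1.26 for Tbx3 (adjusted p = 0.000815) and 0.98 for Zfp42 (adjusted p = 0.00100). Those of the other Tbx3 probes were then 0.73, 1.27 and 1.58, all called, and the first of these (ILMN_3061990) was not called in the authors' normalized table.

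Esrrb overlapped between the groups, reading 13.88, 13.99 and 13.98 without cytokines (difference 0.03 ± 0.15, adjusted p = 0.96). Nr5a2 read 10.45, 9.87 and 10.17 (-0.16 ± 0.19, adjusted p = 0.72), Nr0b1 5.54, 5.44 and 5.66, and Tcl1 10.92, 11.01 and 10.95, all overlapping with Otx2-null PGCLC. Tfcp2l1 read 12.48, 12.29 and 12.57, below each Otx2-null PGCLC array, but its difference of 0.34 ± 0.15 was not called (adjusted p = 0.17). It was called in the authors' normalized table.

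Against WT PGCLC, the Otx2-null cells without cytokines had lower Tbx3 and higher Tcl1, where 10.3% of all probes were higher and 10.8% lower (21.2% called). The lead probe of Tbx3 differed by -1.24 ± 0.20 (adjusted p = 7.86e-05) and that of Tcl1 by 0.73 ± 0.21 (adjusted p = 0.0162). The groups did not overlap for either of these probes. The other Tbx3 probes were divided, with ILMN_3139514 lower (-1.38 ± 0.21, adjusted p = 4.41e-05) and ILMN_3061990 (-0.54 ± 0.20, adjusted p = 0.0615) and ILMN_1228778 (-0.23 ± 0.21, adjusted p = 0.51) not called. The Tcl1 call was lost without WT PGCLC replicate 2 or without replicate 2 of the group without cytokines. Zfp42, which was higher than WT in Otx2-null PGCLC, was not called here (0.14 ± 0.17, adjusted p = 0.66).

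**Figure D3:**
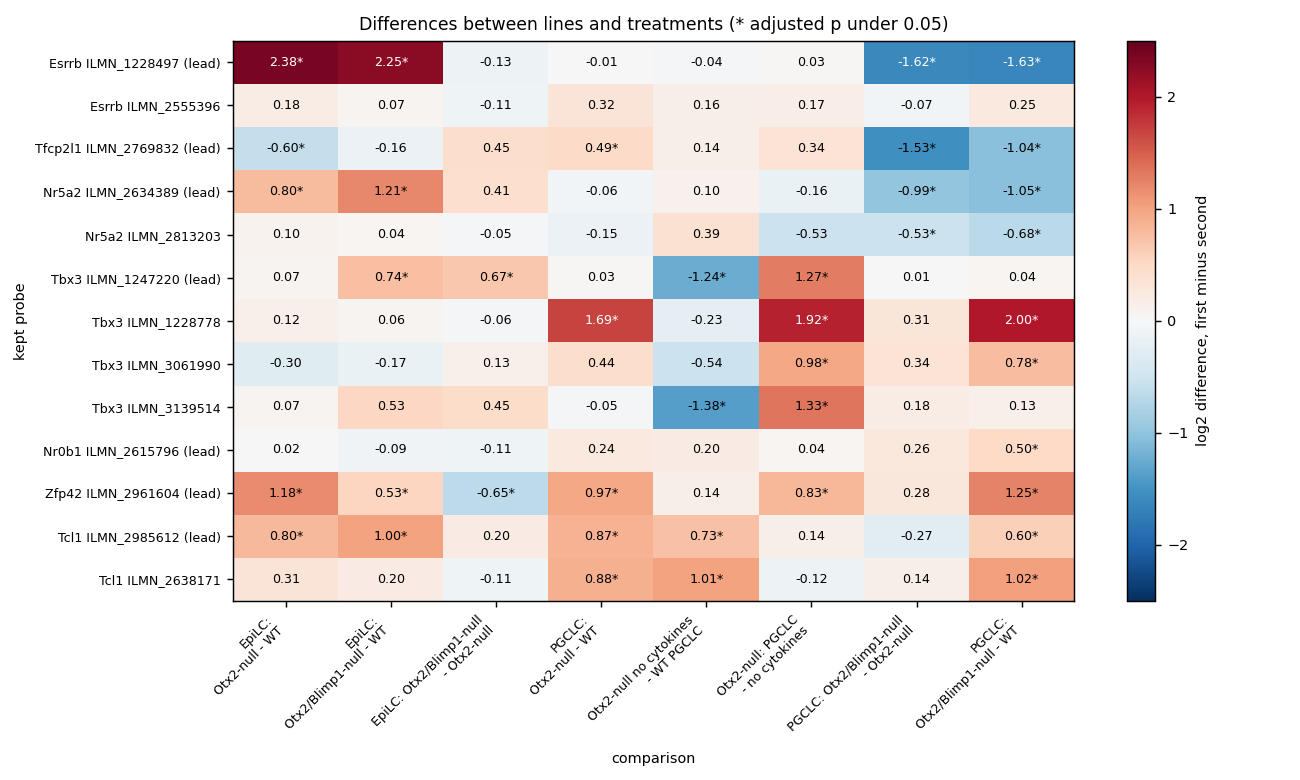
Log2 differences between groups of the same stage (columns, first group minus second) for the 13 tested probes of the regulators (rows). Red is higher and blue lower in the first group, and asterisks mark an adjusted p under 0.05. Esrrb was higher in both mutant lines in EpiLC (2.38 and 2.25), and Esrrb, Tfcp2l1 and Nr5a2 were lower in Otx2/Blimp1-null PGCLC.

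Otx2/Blimp1-null PGCLC had less Esrrb, Tfcp2l1 and Nr5a2 than Otx2-null PGCLC, while Tbx3, Nr0b1, Zfp42 and Tcl1 were not called. Of all probes 23.8% were lower and 43.4% were called in either direction, so 3 of 7 is near the share of the whole array. The regulators split by size, with Esrrb, Tfcp2l1 and Nr5a2 all near or over 1 log2 unit lower and the other 4 within 0.3 log2 units of 0. Esrrb read 12.15, 12.38 and 12.54, below every other day-6 array, and differed by -1.62 ± 0.15 (adjusted p = 2.87e-08). Tfcp2l1 read 11.14, 11.27 and 11.38 and differed by -1.53 ± 0.15 (adjusted p = 5.58e-08). Nr5a2 read 9.11, 9.02 and 8.91 and differed by -0.99 ± 0.19 (adjusted p = 0.000174). All 3 remained far above the EpiLC of the line. Without the reordered array the differences were -1.63, -1.51 and -0.93, all called.

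Zfp42 read 12.79, 12.83 and 12.54 in Otx2/Blimp1-null PGCLC, overlapping with Otx2-null PGCLC (0.28 ± 0.17, adjusted p = 0.20). Tbx3 read 10.16, 10.23 and 10.13, inside the range of Otx2-null PGCLC (0.01 ± 0.20, adjusted p = 0.97). Nr0b1 read 5.77, 5.90 and 5.88 (0.26 ± 0.14, adjusted p = 0.14). Tcl1 read 10.86, 10.87 and 10.77, below each Otx2-null PGCLC array, though the difference of -0.27 ± 0.21 was not called (adjusted p = 0.34). It was called in the authors' normalized table.

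Set against WT PGCLC, Esrrb (-1.63 ± 0.15, adjusted p = 8.19e-09), Tfcp2l1 (-1.04 ± 0.15, adjusted p = 4.59e-06) and Nr5a2 (-1.05 ± 0.19, adjusted p = 6.29e-05) were lower in Otx2/Blimp1-null PGCLC. Zfp42 (1.25 ± 0.17, adjusted p = 1.81e-06), Tcl1 (0.60 ± 0.21, adjusted p = 0.0209) and Nr0b1 (0.50 ± 0.14, adjusted p = 0.00457) were higher, where 23.0% of all probes were higher and 28.2% lower (51.2% called). Tbx3 was not called (0.04 ± 0.20, adjusted p = 0.89), and its groups overlapped. The Tcl1 call was lost when any of 4 arrays was left out, WT PGCLC replicate 2 or 3 or Otx2/Blimp1-null PGCLC replicate 1 or 2. In the authors' normalized table the Nr0b1 difference was 0.02. Early germ cell markers were lower too, with a summed intensity of 3562 to 4776 on Otx2/Blimp1-null PGCLC arrays against 12660 to 15840 in Otx2-null PGCLC, 22360 to 26280 in WT PGCLC and 25030 to 29190 without cytokines. All 7 tested germ cell markers were lower than in Otx2-null PGCLC, where 23.8% of all probes were lower. Their part in the member differences was not tested.

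**Figure D4:**
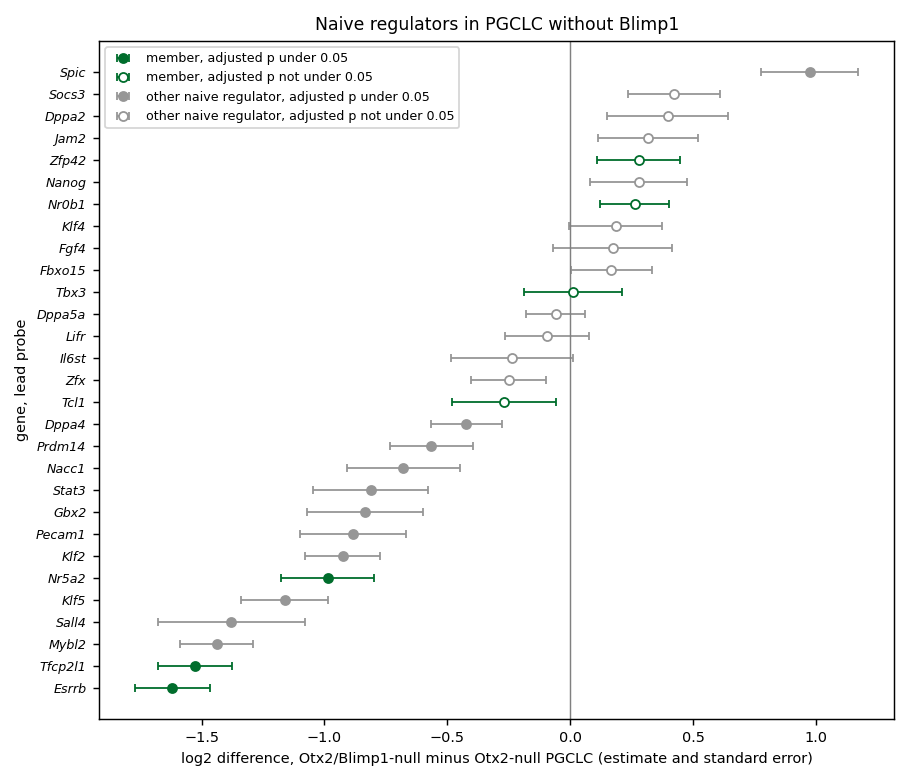
Log2 difference between Otx2/Blimp1-null and Otx2-null PGCLC (horizontal axis) for the 7 regulators (green) and 22 other naive regulators (grey), lead probes in order of the difference. Points are estimates, bars standard errors, and filled points have an adjusted p under 0.05. Esrrb (-1.62) and Tfcp2l1 (-1.53) are the lowest, while Zfp42, Nr0b1, Tbx3 and Tcl1 are not called.

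The change from EpiLC to day 6 was compared between lines by the difference of the differences. Esrrb rose less in the Otx2-null than in the WT line (-2.39 ± 0.21, adjusted p = 9.71e-08), from an EpiLC mean of 9.07 against 6.69 in WT to day-6 means of 13.98 and 13.99. In the authors' normalized table the Esrrb value was -4.43, still called, so its size depends on the scale. Tfcp2l1 rose more (1.09 ± 0.21, adjusted p = 0.00141) and Nr5a2 less (-0.86 ± 0.27, adjusted p = 0.0339), where 7.02% of all probes were higher and 6.66% lower (13.7% called). Both of these rest on an EpiLC group in which the probe was undetected, and in the authors' normalized table they were 0.51, still called, and -0.09, not called. The Nr5a2 call was also lost without any of 7 single arrays. The second Nr5a2 probe, ILMN_2813203, was not called (-0.24 ± 0.30, adjusted p = 0.66). The differences for Tbx3 (-0.04), Nr0b1 (0.22), Zfp42 (-0.21) and Tcl1 (0.07) were not called. Those of Tbx3 and Nr0b1 also rest on undetected EpiLC groups, and that of Tcl1 was 0.90 and called in the authors' normalized table.

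Between the Otx2/Blimp1-null and Otx2-null lines, Esrrb (-1.49 ± 0.21, adjusted p = 7.94e-06), Nr5a2 (-1.40 ± 0.27, adjusted p = 0.000199) and Tfcp2l1 (-1.97 ± 0.21, adjusted p = 3.13e-07) rose less in the former. The size for Tfcp2l1 rests on Otx2-null EpiLC in which it was undetected. The second Nr5a2 probe, ILMN_2813203, was not called (-0.48 ± 0.30, adjusted p = 0.21). Zfp42 rose more (0.93 ± 0.24, adjusted p = 0.0032), where 19.8% of all probes were higher and 23.5% lower (43.3% called). Without the reordered array these values were -1.51 for Esrrb, -1.34 for Nr5a2, -1.95 for Tfcp2l1 and 0.78 for Zfp42, all called, and for the comparison of Otx2-null with WT the values were -2.38 for Esrrb, 1.07 for Tfcp2l1 and -0.91 for Nr5a2, all called. The difference for Tbx3 was not called (-0.66 ± 0.28, adjusted p = 0.064) and also rests on Otx2-null EpiLC without detection.

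Across the 7 groups, Esrrb, Tfcp2l1 and Nr5a2 had in common that Otx2/Blimp1-null PGCLC was separated below the other day-6 groups. For Esrrb and Nr5a2 the other 3 day-6 groups were not separated from each other. For Tfcp2l1, Otx2-null PGCLC stood above the group without cytokines and WT PGCLC, which overlapped. For the lead probe of Tbx3 only the group without cytokines was separated below the other day-6 groups, whereas for ILMN_1228778 it overlapped with WT PGCLC and both lay below the mutant PGCLC groups. For Zfp42 the highest groups were Otx2/Blimp1-null PGCLC (12.72 ± 0.16, SD, n = 3) and Otx2-null PGCLC (12.44 ± 0.26), which overlapped, followed by the group without cytokines (11.61 ± 0.33) and WT PGCLC (11.47 ± 0.10), which also overlapped. WT PGCLC was lowest of the day-6 groups for Zfp42, Tcl1 and Nr0b1, and was separated below its neighbour in Tcl1 (10.23 ± 0.13 against 10.84 ± 0.06).

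Probes of the same gene did not always read alike. A correlation between probes also reflects the step from EpiLC to day 6 that all 21 arrays share. Of the 13 probes tested, 12 rose from WT EpiLC to WT PGCLC. Among these, ILMN_2813203 of Nr5a2 (at least 2.93-fold) and ILMN_1228778 (at least 3.19-fold) and ILMN_3061990 (0.69 ± 0.20) of Tbx3 were not called in the authors' normalized table, where they differed by 0.39, 0.43 and 0.03. The second Esrrb probe (ILMN_2555396) lay between 4.58 and 5.50 on all 21 arrays and changed in none of the 14 comparisons, and its correlation with the lead probe over the arrays was 0.46. For Nr5a2 the second probe (ILMN_2813203) followed the lead probe (r = 0.96) at lower levels, and was lower in Otx2/Blimp1-null PGCLC than in Otx2-null PGCLC by a difference of -0.53 ± 0.21 (adjusted p = 0.0467) whose groups overlapped. That call was lost without the reordered array (-0.36, adjusted p = 0.23) and in 21 of the alternatives in all. For Tcl1 the second probe (ILMN_2638171) followed the lead at r = 0.99, was higher in Otx2-null than in WT PGCLC by 0.88 ± 0.17 (adjusted p = 0.000677) and was not called in any of the 3 EpiLC comparisons.

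Among the 4 Tbx3 probes, ILMN_1247220 and ILMN_3139514 ran together (r = 1.00 over the 21 arrays), and neither was called between Otx2-null and WT PGCLC. ILMN_1228778 was. It read 7.08, 6.91 and 6.47 in WT PGCLC, 8.26, 9.17 and 8.09 in Otx2-null PGCLC, 6.70, 6.62 and 6.45 without cytokines and 8.62, 8.96 and 8.88 in Otx2/Blimp1-null PGCLC. The difference between Otx2-null and WT PGCLC was 1.69 ± 0.21 (adjusted p = 3.0e-06), or 1.36 without the reordered array, which holds the highest Otx2-null value (adjusted p = 1.01e-05). With Otx2/Blimp1-null PGCLC against WT PGCLC it was 2.00 ± 0.21 (adjusted p = 3.44e-08). ILMN_3061990 was not called between Otx2-null and WT PGCLC (0.44 ± 0.20, adjusted p = 0.15), and was higher in Otx2/Blimp1-null than in WT PGCLC (0.78 ± 0.20, adjusted p = 0.00234). Where each probe lies in the transcript is not known here, so a difference between probes cannot be assigned to a transcript form.

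**Figure D5:**
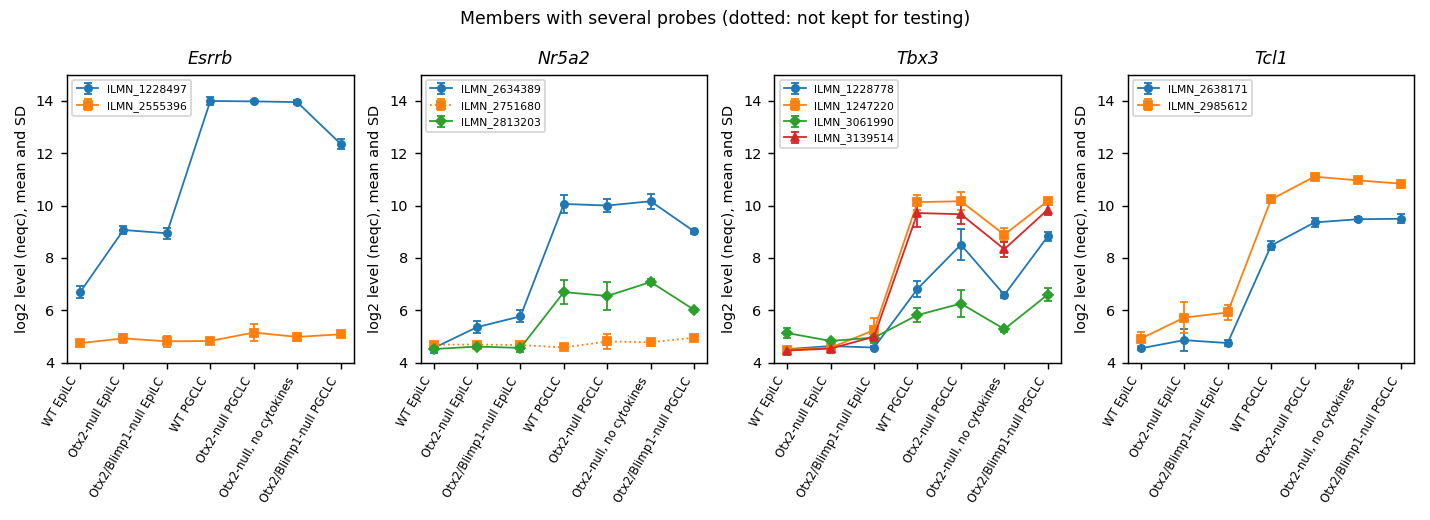
Group means of the log2 signal (vertical axis) for each probe of the 4 regulators with several probes, over the 7 groups (horizontal axis), with bars for the standard deviation of 3 arrays and a dotted line for the probe that was not tested. The second Esrrb probe stays near the floor while the lead probe rises to 14.0, and the Tbx3 probe ILMN_1228778 separates Otx2-null (8.51) from WT PGCLC (6.82).

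A list of 22 tested other naive regulators was, like the members, chosen with earlier results of these data known, so its counts are descriptions. In WT cells 19 of the 22 rose and none fell, with a median of 2.63 against 0.01 over all probes. The shares over all probes were 30.2% higher and 57.7% called. Klf2, a Krüppel-like factor of the network, was at least 173-fold higher in WT PGCLC. Klf5, another of that family, rose by 4.21 ± 0.18, Mybl2, a Myb-family factor of proliferating cells, by 4.01 ± 0.15, and Spic, an Ets-family factor, was at least 10.4-fold higher. Fgf4 (-0.45), Dppa5a (-0.05) and Lifr (-0.03) were not called. In Otx2-null EpiLC, 7 were higher than in WT EpiLC and 1, Klf5 (-0.52 ± 0.18), was lower. The shares over all probes were 7.27% higher and 8.15% lower. Klf2 was at least 7.39-fold higher in Otx2-null EpiLC and Mybl2 higher by 0.65 ± 0.15. In Otx2/Blimp1-null EpiLC Klf2 was at least 9.66-fold and Mybl2 0.80 ± 0.15 above WT.

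At day 6, 10 of the 22 were lower in Otx2/Blimp1-null than in Otx2-null PGCLC and 1 was higher, with a median of -0.24 against -0.05 over all probes. In that comparison 23.8% of all probes were lower and 43.4% were called in either direction. Mybl2 (-1.44 ± 0.15), Klf5 (-1.16 ± 0.18) and Klf2 (-0.93 ± 0.15) were lower, and Spic was the higher gene (0.97 ± 0.20). Between Otx2-null and WT PGCLC, 7 were higher and 2 lower, where 8.84% of all probes were higher and 18.3% were called. The 2 lower were Klf2 (-0.58 ± 0.15) and Pecam1, an adhesion molecule (-0.77 ± 0.22). With cytokines 9 of the 22 were higher than without and none lower, where 6.57% of all probes were higher and 12.4% were called. Klf5 was higher by 0.92 ± 0.18 and Mybl2 by 0.68 ± 0.15. Socs3, an inhibitor induced by Stat3, and Klf4, a Krüppel-like factor downstream of LIF, are named after their values were seen. They were higher with cytokines by 2.79 ± 0.19 and 2.27 ± 0.19, beside the 1.27 of Tbx3 and the 0.34 of Tfcp2l1, which was not called. A link between these differences was not tested. Against WT PGCLC, the cells without cytokines had 9 of the 22 lower and 1, Zfx (1.10 ± 0.15), higher. The shares over all probes were 10.8% lower and 10.3% higher.

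Regulators of the exit from naive pluripotency did not move one way in WT induction, where 8 of 17 tested rose and 4 fell, with a median of 0.46. Over all probes 30.2% rose and 57.7% were called. Otx2 (-3.35 ± 0.15) and the epiblast POU factor Pou3f1 (-4.29 ± 0.24) fell, as did the Ets factor Etv4 (-0.62 ± 0.16) and Zic2 (-0.67 ± 0.27), while the Ets factor Etv5 (2.00 ± 0.22) and Flcn, a regulator of the exit through Tfe3 (1.45 ± 0.15), rose. In Otx2/Blimp1-null against Otx2-null PGCLC 8 of the 17 were lower, with a median of -0.30, where 23.8% of all probes were lower and 43.4% were called. The Otx2 probe read higher (0.77 ± 0.15), but both lines carry the Otx2-null alleles. Whether the probe lies inside the deleted sequence is not known, so this value is not read as Otx2 expression.

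Relatives and partners of the members were tested for 12 genes, of which 4 rose and 3 fell in WT induction, with a median of 0.06. Over all probes 30.2% rose and 57.7% were called, so these counts are near the share of the whole array. The zinc finger factor Klf9 (2.13 ± 0.17) and Grhl3 (1.96 ± 0.19), a grainyhead relative of Tfcp2l1, rose. The Esrrb relative Esrra (-1.13 ± 0.15) and Grhl2 (-0.64 ± 0.17) fell, and Mtcp1, of the Tcl1 family, was at least 1.63-fold lower. None of the 12 was called between Otx2-null and WT EpiLC (15.4% of all probes) or between Otx2-null and WT PGCLC (18.3%). In the cells without cytokines 3 were higher and 1 was lower than in WT PGCLC, beside 10.3% and 10.8% of all probes.

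The patterns most like each lead probe over the 21 arrays are given as Pearson's r, as a description, since all arrays share the step from EpiLC to day 6. They were Ifitm1 (0.99), Elf3 (0.99) and Tfap2c (0.99) for Esrrb, Adgre5 (0.99), Brwd1 (0.99) and Tead4 (0.99) for Tfcp2l1, and Meis2 (0.99), Ifitm1 (0.99) and Slc45a4 (0.99) for Nr5a2. For Tbx3 they were Fzd5 (0.98), Fblim1 (0.98) and Cobl (0.98), and for Tcl1 Meis2 (0.98), Samd9l (0.98) and Camk2n1 (0.98). Zfp42 was most like Manba (0.99), Ooep (0.97) and Mme (0.96), and Nr0b1 like Samd9l, Crtac1 and Manba (each 0.96). Among the members themselves r ran from 0.85 for Esrrb and Nr0b1 to 0.98 for Esrrb and Nr5a2.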

How the data were processed

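RNA of 21 samples in 7 groups was hybridised as biotin-labelled cRNA to Illumina one-colour bead arrays. Per the labels, groups are line, stage and cytokines. The deposited intensities had been background-subtracted and equalized between arrays, as their values show. The authors' deposited normalized table holds log2 values on a scale that compresses dim signals, with a detection p-value per probe and array; per the submitters' processing notes limma was used. Gene names came from the platform annotation (34885 probes name 1 gene, 18 several, 10378 none).

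For replicate 2 of the Otx2-null PGCLC, the rows of the intensity column were not in the order of the probes (rank correlation with its normalized column 0.00547, against 1 elsewhere) and was put back through the ranks of that column. Detection p-values were taken from the normalized table. The neqc function (limma 3.58.1, R 4.3.3) was applied to the intensities (offset 16, quantile normalization, log2). The 21647 probes kept had 3 or more arrays with a detection p under 0.05. One model (lmFit and eBayes) held all 21 arrays with group as its factor, and gave 14 comparisons with two-sided p-values, adjusted by Benjamini-Hochberg over all kept probes and called under 0.05. Where a probe was undetected on all arrays of a group, the array's lowest signal of a detected probe took the place of a lower value and the fold is given as "at least". The fit was tested on simulated data. Promoters are RefSeq windows on GRCm38.p6. For arrays, depth is signal over background.

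All tested member probes, Otx2 and Prdm1 are named, with the 3 genes most like each lead probe, and for each list up to 4 genes with the smallest p in WT induction and called genes that go against the list's median. Neighbours in an order of levels are not separated where their arrays overlap. The members and lists were chosen with earlier results of these data known. Alternatives were the authors' normalized table, no further background correction, an offset of 50, no filter, detection p under 0.01, 1 probe per gene, an intensity trend in eBayes, a fit of only the groups compared, the replicate number as a block and each array left out. Of the group pairs, only WT and Otx2-null EpiLC met the check that replicate numbers pair the samples (every same-numbered correlation over 0.1), as a pattern in the data and not a label. No slide is named, so a slide block was not run.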

Additional observations from a re-analysis of the deposited data

Results flagged for a closer look

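For these members the step from EpiLC to day 6 differed between lines by a test of the difference itself. In the Otx2-null line against WT, Esrrb rose less by a log2 difference of -2.39, Nr5a2 (ILMN_2634389) less by -0.86 and Tfcp2l1 more by 1.09, and the Tbx3 probe ILMN_1228778 rose more by 1.57 (adjusted p = 0.000780). In the Otx2/Blimp1-null line against the Otx2-null line, Esrrb (-1.49), Tfcp2l1 (-1.97) and Nr5a2 (-1.4) rose less and Zfp42 rose more (0.93). The second Nr5a2 probe, ILMN_2813203, was called in neither comparison. The values of Nr5a2 and of the Tbx3 probe against WT, and both values of Tfcp2l1, rest on EpiLC in which the probe was not detected. In the authors' normalized table the values against WT were -4.43 for Esrrb, -0.09 for Nr5a2, not called, 3.44 for the Tbx3 probe and 0.51 for Tfcp2l1.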

How the results depend on the processing

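The calls least open to processing were the rises from EpiLC to day 6: for the 7 lead probes none of the 4 comparisons lost a call under any alternative run. The sizes of the rises did depend on it. With no array left out, the Esrrb rise in WT ran from 6.89 to 9.66 over the alternatives, highest in the authors' normalized table. Over 5362 values of the 13 tested probes set against another setting, 84 lost a call (17 in the authors' normalized table, 46 without 1 array), 37 gained one and none of the called values changed sign. The EpiLC counts depended most on the processing. Member probes called between Otx2-null and WT EpiLC were 5, and 2 in the authors' normalized table or 3 with only the groups compared. Between Otx2/Blimp1-null and WT EpiLC they were 5, and 2 in the authors' table. Between Otx2/Blimp1-null and Otx2-null EpiLC they were 2, and 1 in the authors' table, 4 with no further background correction, 1 with an offset of 50, 1 with no filter, 0 with only the groups compared (where 7 of all probes were called) and 0 to 2 with 1 array left out. Over all probes, the calls between Otx2-null and WT EpiLC fell from 3339 to 1364 with only the groups compared. Those between Otx2/Blimp1-null and Otx2-null EpiLC fell from 2869 to 877 without Otx2/Blimp1-null EpiLC replicate 1 and to 1779 without Otx2-null EpiLC replicate 3, and those between Otx2-null cells with and without cytokines from 2678 to 1783 without replicate 2 of the group without cytokines. The cause was not tested. With 1 probe per gene fewer probes are tested, and the counts over all probes are lower by construction.

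Replicates share a number across groups. Correlations of same-numbered deviations ran from -0.19 to 0.35, and 13 of 21 arrays correlated best with their own number. In 1 of 21 group pairs, WT and Otx2-null EpiLC, all 3 were over 0.1 (0.13, 0.28 and 0.18), which meets the rule for pairing. The other 20 did not meet it, which does not show that their samples were unpaired. The labels do not say whether samples of the same number shared a culture or batch. With the replicate block, the member probes called were 5 between Otx2-null and WT EpiLC and 4 between Otx2/Blimp1-null and Otx2-null PGCLC, as without it, and no member call changed. For the EpiLC pair the calls over all probes went from 3339 to 3449. Signal over background limits Nr0b1 and the EpiLC values of Tfcp2l1, Nr5a2, Tbx3 and Tcl1.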
